A study of Mus musculus with 9 samples.

Results

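The miRNAs described here come from 2 related miRNA clusters of the mouse genome, the cluster of Mir194-2 and Mir192 on chromosome 19 and the cluster of Mir194-1 and Mir215 on chromosome 1. They were chosen by name, as every row of the deposited miRNA table that begins with mmu-miR-192-, mmu-miR-194- or mmu-miR-215-, which gave 7 of 1140 rows. These were mmu-miR-192-5p, mmu-miR-192-3p, mmu-miR-194-5p, mmu-miR-194-2-3p, mmu-miR-194-1-3p, mmu-miR-215-5p and mmu-miR-215-3p. Small RNA was sequenced from whole livers of 9 male C57BL/6 mice in 3 groups. The control mice (n = 3) received intraperitoneal saline for 8 weeks, and the TAA mice (n = 3) received intraperitoneal thioacetamide (TAA), a hepatotoxin that leads to liver fibrosis, for 8 weeks. The recovery mice (n = 3) received TAA in the same way and were then kept for 8 weeks without it. Treatment began in young adult mice, and the recovery mice were therefore older at sampling than the others, so recovery and elapsed time cannot be told apart. Each library came from a different mouse, and its total was between 9071847 and 12983378 counts.

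A miRNA gene is transcribed as a long primary transcript, from which a hairpin is cut and then trimmed to a short duplex whose strands are the 5p and 3p arms. Usually the strand that is loaded into an Argonaute protein accumulates and the other is degraded, and the loaded strand recognises messenger RNAs mainly through its seed, bases 2 to 8 from the 5′ end. Neighbouring hairpins of a cluster can be cut from a common primary transcript. miR-192, miR-194 and miR-215 are known as miRNAs of the epithelia of liver, gut and kidney. Their clusters are known targets of hepatocyte nuclear factors, which maintain the differentiated state of hepatocytes, and of p53, the transcription factor of the DNA damage response.

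The 2 clusters are laid out alike, with the miR-194 hairpin first and the partner hairpin downstream on the + strand. On build GRCm38, Mir194-2 lies at chr19:6264643-6264728 and Mir192 at chr19:6264844-6264932, with 115 bases between them. Neither overlaps another annotated gene, and the nearest upstream gene is Atg2a, 2307 bases from Mir194-2. Mir194-1 lies at chr1:185313319-185313385 and Mir215 at chr1:185313581-185313692, with 195 bases between them. Both lie within the antisense RNA gene 2010103J01Rik on the + strand and within Iars2, a protein-coding gene on the other strand. Mir194-1 overlaps no exon, whereas Mir215 overlaps an exon of 2010103J01Rik and none of Iars2.

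**Figure D1:**
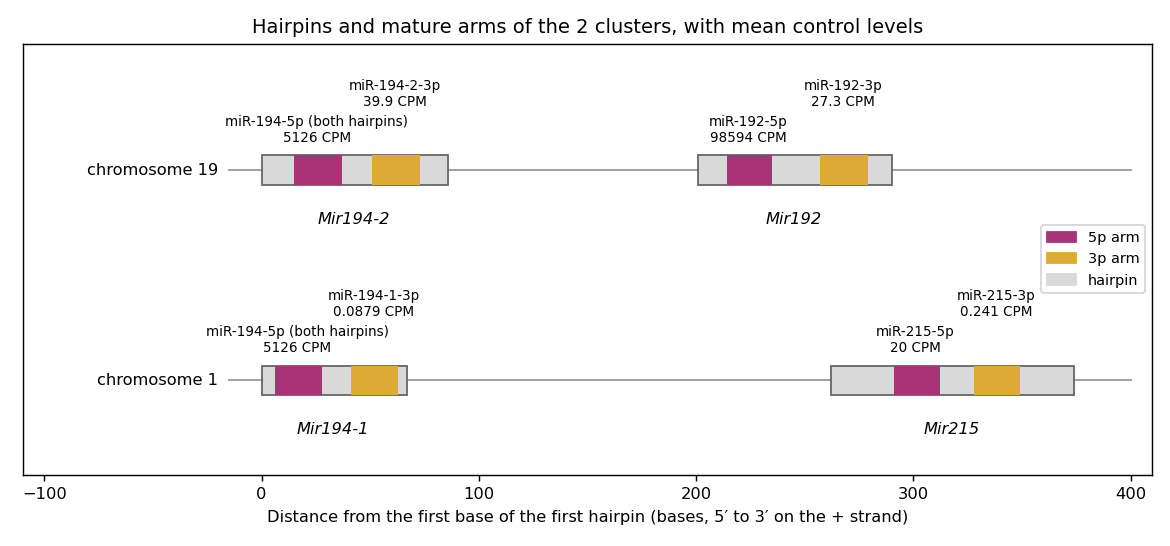
Map of both clusters drawn to scale, with the distance in bases from the start of each first hairpin on the x axis, hairpins in grey, 5p arms in purple and 3p arms in yellow. The mean TMM-scaled CPM of the 3 control livers stands above each arm and runs from 0.0879 for mmu-miR-194-1-3p to 98594 for mmu-miR-192-5p, and mmu-miR-194-5p is drawn on both hairpins because its counts cannot be divided between them.

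The mature sequences, which RefSeq gave for 7 of 7 members on GRCm38.p6, are shown because they decide which reads can be told apart and which members share targets by seed. Capitals mark the seed.
mmu-miR-192-5p: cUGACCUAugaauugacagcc
mmu-miR-215-5p: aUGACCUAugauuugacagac
mmu-miR-194-5p: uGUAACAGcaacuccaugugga
mmu-miR-192-3p: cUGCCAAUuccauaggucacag
mmu-miR-215-3p: uCUGUCAUucuguaggccaau
mmu-miR-194-2-3p: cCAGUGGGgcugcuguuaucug
mmu-miR-194-1-3p: cCAGUGGAgcugcuguuacuuc

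The 5p arms of miR-192 and miR-215 carry the same seed, and no other row with a RefSeq sequence, of 935 such rows, holds it. Counted from the 5′ end, they differ by C1A, A12U and C20A, 3 of 21 bases, with mmu-miR-192-5p given first. mmu-miR-194-5p is identical from Mir194-2 and Mir194-1, so its counts cannot be assigned to either cluster. The 3p arms of the miR-194 hairpins can be told apart, with mmu-miR-194-2-3p differing from mmu-miR-194-1-3p by G8A, U19C, C20U and G22C, 4 of 22 bases, of which G8A lies in the seed. How the authors treated reads that match more than 1 miRNA is not given in the sources used here, and the handling of reads with mismatches could move counts from the abundant mmu-miR-192-5p to the rare mmu-miR-215-5p.

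Levels are given as counts per 1000000 counts (CPM) scaled by TMM, a method that assumes that most miRNAs do not differ between libraries. In control livers mmu-miR-192-5p was the dominant member, with 98594 ± 3090 CPM (SD, n = 3), and it was the 5th most abundant row of the table in every group. It held between 93.6% and 95.2% of the counts of all 7 members in each library, and mmu-miR-194-5p held between 4.64% and 6.26%. Every other member was below these by at least an order of magnitude. In control livers the level was 39.9 ± 0.744 CPM for mmu-miR-194-2-3p, 27.3 ± 3.28 CPM for mmu-miR-192-3p and 19.98 ± 11.5 CPM for mmu-miR-215-5p, and the last of these overlapped the second. The 3p arms of the chromosome 1 hairpins were close to the limit of counting, as described further on.

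The members of the chromosome 19 cluster were lower in TAA livers and returned towards the control level in recovery. mmu-miR-192-5p, the guide strand of its hairpin, measured 99828, 100876 and 95078 CPM in the control livers, 37792, 35473 and 31561 CPM in the TAA livers and 81782, 76762 and 85279 CPM in the recovery livers. No value of one group lay within the range of another. In the edgeR quasi-likelihood test it fell by 1.58 on the log2 scale (SE 0.08, FDR 1.99e-05) with TAA against control and rose by 1.20 (SE 0.10, FDR 0.000283) in recovery vs TAA. The other arm of the hairpin, mmu-miR-192-3p, measured 24.2, 30.7 and 26.9 CPM in control, 11.2, 8.57 and 7.12 CPM in TAA and 16.99, 26.5 and 24.2 CPM in recovery livers. The TAA values lay below all others, and the recovery and control values overlapped. It fell by 1.70 on the log2 scale (SE 0.21, FDR 0.000602) with TAA and rose by 1.32 (SE 0.26, FDR 0.00628) in recovery.

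mmu-miR-194-2-3p, the 3p arm that only Mir194-2 can give, measured 39.6, 40.8 and 39.4 CPM in control livers, 10.7, 12.6 and 12.96 CPM in TAA livers and 35.8, 38.8 and 28.3 CPM in recovery livers. All 3 recovery values lay below all 3 control values and above all TAA values. It fell by 1.81 on the log2 scale (SE 0.17, FDR 0.00016) with TAA against control and rose by 1.48 (SE 0.21, FDR 0.0019) in recovery vs TAA. mmu-miR-194-5p, which either cluster can give, measured 4998, 5353 and 5027 CPM in control, 1842, 2138 and 2110 CPM in TAA and 4802, 4503 and 4179 CPM in recovery livers. Here too the groups did not overlap, with recovery between TAA and control. In the deposited TPM the recovery values of mmu-miR-192-5p, mmu-miR-194-5p and mmu-miR-194-2-3p overlapped those of control and stayed above those of TAA, whereas recovery replicate 1 of mmu-miR-192-3p, at 13.02 TPM, lay within its TAA range of 11.6 to 15.99 TPM. With TMM the log2 fold change of mmu-miR-194-5p was -1.42 (SE 0.12, FDR 0.000114) with TAA against control and 1.12 (SE 0.14, FDR 0.000943) in recovery against TAA.

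mmu-miR-215-5p, the seed partner of mmu-miR-192-5p from chromosome 1, had another course. It measured 14.97, 33.1 and 11.8 CPM in control livers, 29.8, 14.8 and 19.4 CPM in TAA livers and 28.96, 55.0 and 55.7 CPM in recovery livers. Control and TAA values overlapped, and control replicate 2 lay above all TAA values. The log2 fold change in TAA vs control was -0.01 (SE 0.42, FDR 0.987) with a 95% interval of -0.98 to 0.97, so that neither a doubling nor a halving lay far outside it. Without control replicate 2 it was 0.56. In recovery vs TAA it rose by 1.12 (SE 0.32, FDR 0.0289), although recovery replicate 1 lay within the TAA range, and the call was lost when any of TAA replicates 2 and 3 or recovery replicates 2 and 3 was left out, and also with the replicate number as a block (FDR 0.0703). In recovery vs control the log2 difference was 1.19 (SE 0.37), with an FDR of 0.0626 and a 95% interval of 0.36 to 2.02.

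**Figure D2:**
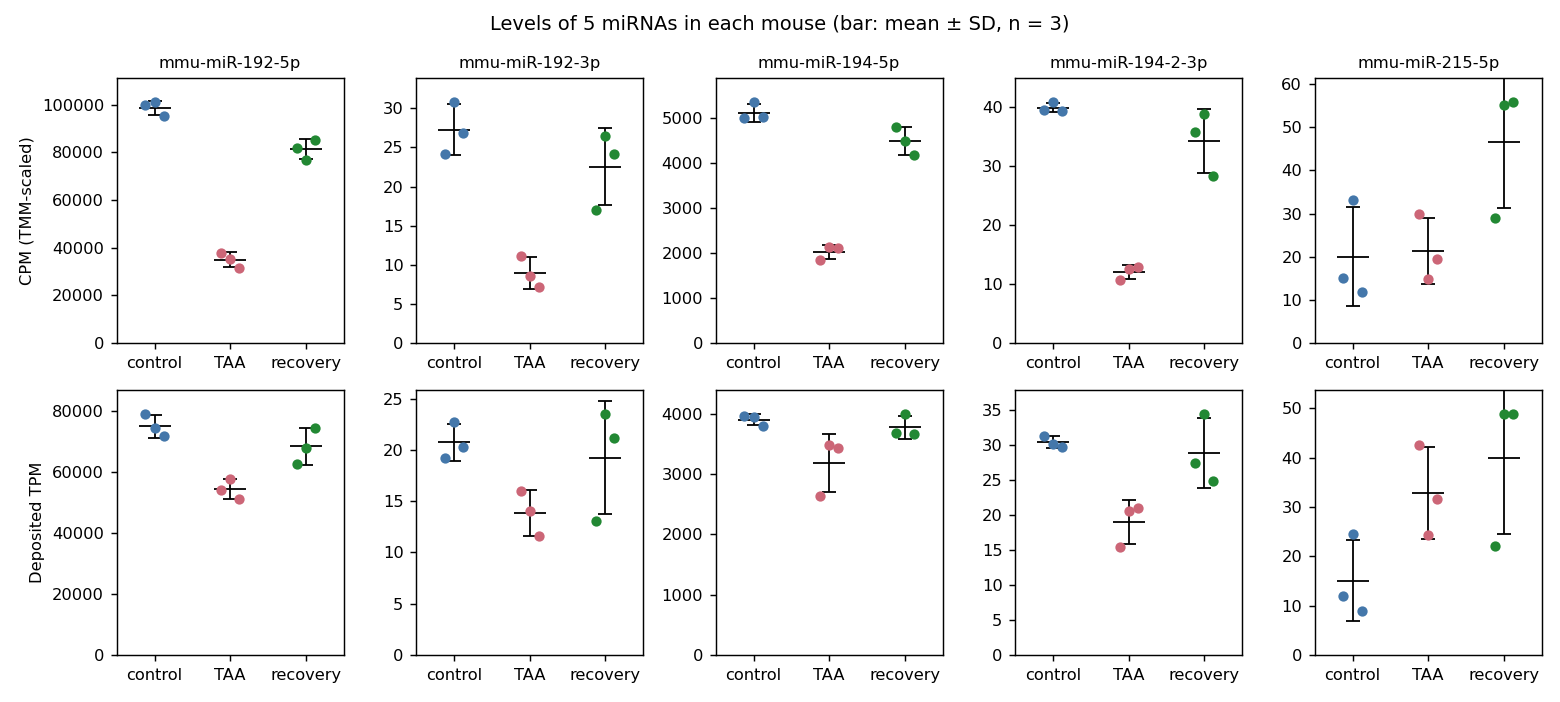
Levels of 5 miRNAs in each liver, with TMM-scaled CPM in the upper row and the deposited TPM in the lower row on y axes that start at 0, points for single mice and black bars for the mean ± SD of 3 mice. The first 4 miRNAs have their lowest mean in TAA in both rows, whereas mmu-miR-215-5p has its highest mean in recovery in both rows and its control and TAA means lie close together only in CPM (19.98 and 21.3).

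Of the 7 members, 5 passed the filter on low counts, and a miRNA was called where its fold change was at least 2 and its FDR was below 0.05. Of these 5, 4 were called in TAA vs control, all 4 lower, where 41.7% of all 420 rows tested were called in either direction and 16.7% were called lower. In recovery vs TAA all 5 were called higher, where 24.8% of 440 rows were called and 10.2% were called higher. With TMM, the filter on low counts, all rows and replicates and no replicate block, edgeR called 0 of the 5 in recovery vs control. There 11.3% of 391 rows were called, and 3 of the 5 had an unadjusted p below 0.05. Among these, mmu-miR-192-5p had a log2 fold change of -0.32 (FDR 0.0809) with a 95% interval of -0.55 to -0.08. All 3 recovery livers lay below all 3 control livers for it. mmu-miR-215-5p was called higher in this comparison by DESeq2, and by edgeR with library totals, with no filter, without the miR-122 rows and with the replicate number as a block.

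The size of these differences depended on the scaling. TMM factors over all 9 libraries were 0.739 to 0.792 in control, 1.43 to 1.63 in TAA and 0.766 to 0.887 in recovery. Library totals and TMM thus placed the TAA libraries on different scales. With all 9 samples in 1 fit the log2 fold change of mmu-miR-192-5p in TAA vs control was -1.50. With library totals the median log2 fold change of all rows tested in TAA vs control moved from 0.11 to 1.23, and that in recovery vs TAA from -0.12 to -0.98. On that scale mmu-miR-192-5p fell by 0.46 (FDR 0.0012), mmu-miR-192-3p by 0.58 (FDR 0.0257) and mmu-miR-194-2-3p by 0.68 (FDR 0.0106) in TAA vs control, all short of a fold change of 2, and the value of mmu-miR-194-5p was -0.29 (FDR 0.0716). Under both scalings these 4 stood well below the median of all rows. mmu-miR-215-5p was instead called higher, by 1.12 (FDR 0.0356), near that median, where 57.4% of rows were called higher. In recovery vs TAA no member was called with library totals, where 47% of rows were called in either direction but only 0.909% higher. The values of the members were all above 0 there, from 0.25 (FDR 0.18) for mmu-miR-194-5p to 0.61 (FDR 0.046) for mmu-miR-194-2-3p. Those of mmu-miR-192-5p, mmu-miR-192-3p and mmu-miR-215-5p were 0.33 (FDR 0.0332), 0.47 (FDR 0.166) and 0.28 (FDR 0.498). The 95% intervals of mmu-miR-194-5p, mmu-miR-192-3p and mmu-miR-215-5p included 0. In recovery vs control mmu-miR-215-5p was called higher by 1.41 (FDR 0.0247), where 12% of rows were.

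**Figure D3:**
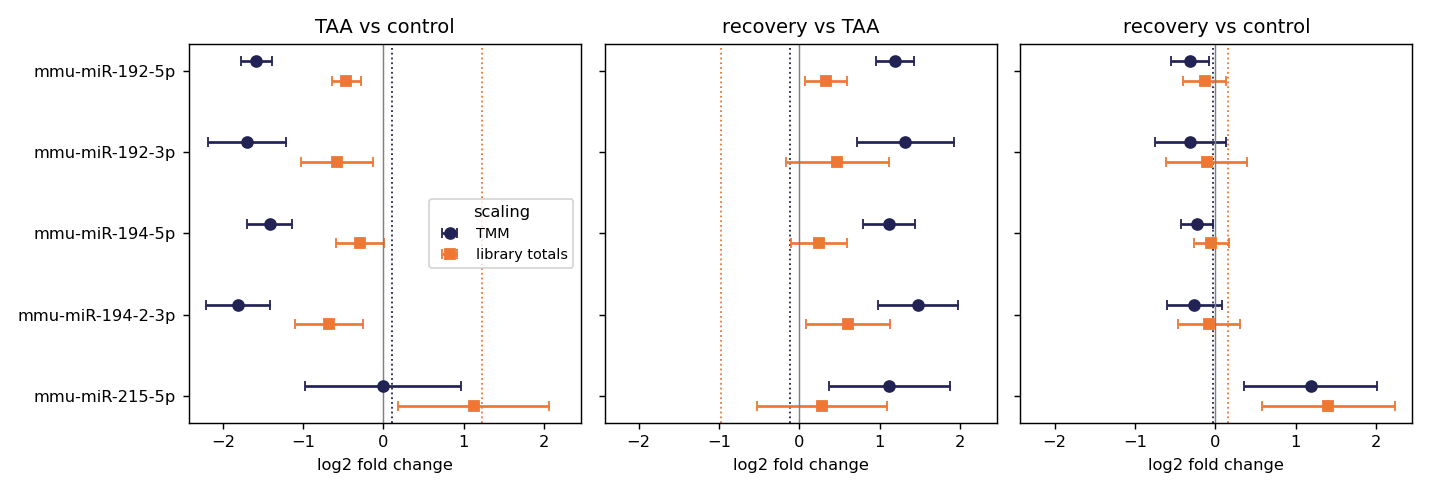
Log2 fold changes of 5 miRNAs in the 3 comparisons, with TMM scaling as circles and library totals as squares, 95% intervals as horizontal bars and the median of all rows tested as dotted lines. The first 4 miRNAs lie left of the dotted line of their own scaling in the first panel and right of it in the second, whereas mmu-miR-215-5p lies at -0.01 with TMM and 1.12 with library totals in TAA vs control.

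As a share of each library, the 7 members together made up 7.91% ± 0.376 (SD, n = 3) of the counts in control, 5.77% ± 0.344 in TAA and 7.24% ± 0.603 in recovery livers. The exact two-sided permutation test gave p = 0.1 both for TAA against control and for recovery against TAA, which is the smallest p that 3 against 3 samples allow, and p = 0.2 for recovery vs control.

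A ratio of 2 miRNAs counted in the same library does not depend on the scaling, and 10 such ratios were compared across 3 pairs of groups by exact permutation tests. None of these 30 tests could pass 0.05, and the smallest adjusted p was 0.333. The ratio that differed most between groups without resting on a member at 0 was that of the seed partners. mmu-miR-192-5p outnumbered mmu-miR-215-5p by 6645, 3040 and 7982 to 1 in control replicates 1 to 3, by 1268, 2383 and 1624 to 1 in TAA and by 2818, 1394 and 1530 to 1 in recovery replicates 1 to 3. Every TAA and recovery value lay below every control value, though recovery replicate 1 and control replicate 2 were close. On average the ratio was 3.20-fold lower in TAA than in control (p = 0.1, exact permutation test) and 2.99-fold lower in recovery than in control (p = 0.1, exact permutation test). Between recovery and TAA it overlapped, with a log2 difference of 0.10 (p = 0.7, exact permutation test). In recovery mmu-miR-192-5p lay nearer to its control level than in TAA, while its ratio to mmu-miR-215-5p still lay below every control value. Since none of these tests could pass 0.05, they cannot decide whether the ratio returned in part. The seed UGACCUA was supplied almost wholly by mmu-miR-192-5p in every library.

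Ratios between the arms that the 2 hairpins of chromosome 19 can give did not separate the groups. Of these arms, mmu-miR-194-5p can come from Mir194-1 as well. mmu-miR-192-5p outnumbered mmu-miR-194-5p by 18.8 to 19.97 to 1 in control, 14.96 to 20.5 to 1 in TAA and 17.03 to 20.4 to 1 in recovery livers, and the groups overlapped. The values of the 3p arms overlapped too, with 0.612 to 0.754 counts of mmu-miR-192-3p for each of mmu-miR-194-2-3p in control, 0.55 to 1.04 in TAA and 0.475 to 0.855 in recovery livers.

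For the ratio of the 2 arms, the groups overlapped for miR-192, whereas the TAA livers lay apart for miR-194. mmu-miR-192-5p outnumbered mmu-miR-192-3p by 3275 to 4115 in control, 3377 to 4414 in TAA and 2897 to 4797 in recovery livers, which overlapped throughout. mmu-miR-194-5p outnumbered mmu-miR-194-2-3p by 126 to 131 in control, 162 to 171 in TAA and 116 to 147 in recovery livers. The TAA values lay above all others, with a log2 difference of 0.39 from control (p = 0.1, exact permutation test), that is 1.31-fold, and of -0.35 in recovery vs TAA (p = 0.1, exact permutation test). Whether the difference between the hairpins exceeds the spread was not tested. Since mmu-miR-194-5p can come from Mir194-1 as well, this is a ratio of the summed 5p arms to 1 of the 3p arms.

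**Figure D4:**
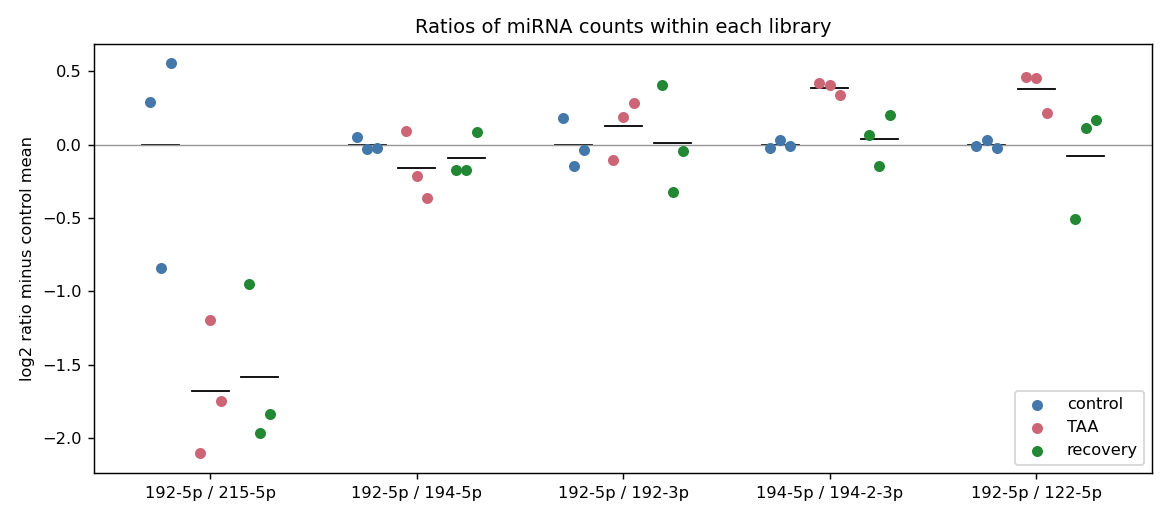
Log2 ratios of 5 pairs of miRNAs counted in the same library, each minus the mean of the 3 control livers, with points for single mice and black lines for group means. The ratio of mmu-miR-192-5p to mmu-miR-215-5p is lower in TAA and recovery (mean differences -1.68 and -1.58), and those of mmu-miR-194-5p to mmu-miR-194-2-3p and of mmu-miR-192-5p to mmu-miR-122-5p are higher in TAA (0.39 and 0.38).

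The remaining arms of the chromosome 1 cluster were rare. mmu-miR-194-1-3p had 0, 2 and 0 counts in control, 0 counts in each TAA library and 0, 1 and 10 counts in recovery replicates 1 to 3. A count of 0 allows up to 3 counts, which is 0.265 to 0.331 TPM in the TAA libraries for counting error only, and the values above this rest on recovery replicate 3. mmu-miR-215-3p had 2, 3 and 1 counts in control, 7, 2 and 3 in TAA and 7, 11 and 14 in recovery livers. Of the recovery counts 2 lay above all others and the lowest equalled the highest TAA count. Neither row passed the filter with all replicates. With no filter on low counts both were called higher in recovery vs TAA by edgeR, mmu-miR-215-3p by 1.92 on the log2 scale (FDR 0.0387) and mmu-miR-194-1-3p with an FDR of 0.00998, where the TAA libraries are all at 0 and a fitted fold is no bound. In recovery vs TAA mmu-miR-215-3p also passed the filter when any TAA replicate or recovery replicate 1 was left out. It was then called in each case except without TAA replicate 3 (FDR 0.0694). Since it passed only through recovery replicates 2 and 3, where its counts were highest, these calls are no separate support. mmu-miR-215-5p outnumbered mmu-miR-215-3p by 59.7 to 71.9 to 1 in control, 64.5 to 88.2 to 1 in TAA and 36.2 to 52.1 to 1 in recovery livers, computed with 0.5 added to each count. The recovery values lay below all others, with log2 differences of -0.86 from TAA and -0.58 from control (p = 0.1 for each, exact permutation test), and rest on 1 to 14 counts of the 3p arm in a library.

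In whole liver, fewer cells of a type and less of a miRNA per cell cannot be told apart. mmu-miR-122-5p, the most abundant miRNA of hepatocytes, measured 266777 ± 5165 CPM in control, 72644 ± 2297 CPM in TAA and 237499 ± 67503 CPM in recovery livers, with log2 fold changes of -1.96 with TAA against control and 1.68 in recovery against TAA (-0.84 and 0.80 with library totals). Relative to it, mmu-miR-192-5p was higher in TAA than in control by 0.38 on the log2 scale, with no overlap (p = 0.1, exact permutation test). Of 13 listed hepatocyte miRNAs, 12 were in the table and 11 were tested. With TMM 9 of the 11 were lower and 0 higher in TAA vs control, with a median of -1.52 beside 0.11 for all rows. In recovery vs TAA 7 were higher and 0 lower. Of all rows tested with TMM, 16.7% were called lower in TAA vs control and 10.2% higher in recovery vs TAA. With library totals 0 were lower and 2 higher in TAA vs control, where 0.952% of all rows were called lower and 57.4% higher. In recovery vs TAA 1 was lower and 1 higher on that scale, where 46.1% of all rows were called lower and 0.909% higher. The summed level of the listed hepatocyte miRNAs was 434049 to 448512 CPM in control, 122113 to 146398 in TAA and 362368 to 439695 in recovery livers. None of those in the table was at 0 in all samples.

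Lists of miRNAs of other liver cells are counted with TMM, where 25% of all rows were called higher in TAA vs control and 14.5% lower in recovery vs TAA. Of 12 miRNAs of bile duct and other epithelia, led by mmu-miR-200b-3p, 8 were higher and 1 lower with TAA against control, 1 was higher and 9 lower in recovery vs TAA, and their summed level was 1830 to 2259 CPM in control, 4431 to 7227 in TAA and 2576 to 2808 in recovery livers. Of 11 miRNAs of stellate cells and myofibroblasts 6 were higher and 0 lower in TAA vs control, and 0 were higher and 6 lower in recovery vs TAA. Their summed level, dominated by mmu-miR-143-3p, was 25821 to 31417 CPM in control, 18629 to 40156 in TAA and 22258 to 36139 in recovery livers. Of 7 leukocyte miRNAs, led by mmu-miR-146a-5p, 2 were higher and 0 lower in TAA vs control, and 0 were higher and 1 lower in recovery vs TAA, with sums of 573 to 778 CPM in control, 705 to 846 in TAA and 602 to 1086 in recovery livers. With library totals 10 epithelial, 9 stellate cell and 6 leukocyte miRNAs were higher in TAA vs control, and 11, 8 and 6 miRNAs of these lists in turn were lower in recovery vs TAA, where 57.4% and 46.1% of all rows were. The part of these cells in the values of the miR-192, miR-194 and miR-215 members was not tested. Of the 12 other miRNAs known to respond to p53, 11 were in the table and 7 were tested in TAA vs control, of which 2 were higher and 0 lower with TMM, a share close to that of all rows. In recovery vs TAA 0 of 8 tested were higher and 2 lower. With library totals 3 of the 7 were higher in TAA vs control and 2 of the 8 lower in recovery vs TAA. mmu-miR-143-3p and mmu-miR-145a-5p are on both the p53 list and the stellate cell list. In recovery vs control with TMM 1 epithelial miRNA was called higher and 1 lower, and 0 of the other lists were called.

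Rows with a similar course across the 9 livers were found by the root mean square difference of log2(CPM + 1), each row centred on its own mean, among 221 rows with a mean of at least 10 CPM that are not members. Such values describe the libraries and share their depth and scaling. The nearest to mmu-miR-192-5p were mmu-miR-1843a-5p at 0.068, mmu-miR-30c-2-3p at 0.131 and mmu-miR-148a-5p at 0.144, beside a median of 0.695 over all candidates. mmu-miR-192-3p was nearest to mmu-miR-148a-3p (0.067), mmu-miR-1843a-5p (0.203) and mmu-miR-148a-5p (0.214). mmu-miR-194-5p was nearest to mmu-miR-139-5p (0.115), mmu-miR-122-3p (0.123) and mmu-miR-378a-3p (0.125), and mmu-miR-194-2-3p to mmu-miR-29c-3p (0.202), mmu-miR-139-5p (0.203) and mmu-miR-30c-2-3p (0.207). By the same measure mmu-miR-192-5p lay 0.148 from mmu-miR-194-5p and 0.200 from mmu-miR-192-3p, farther than from its 3 nearest rows outside the clusters. mmu-miR-192-3p likewise lay nearer to mmu-miR-148a-3p than to its own 5p arm. Only mmu-miR-194-2-3p lay nearer to another member than to any row outside the clusters, at 0.161 from mmu-miR-194-5p. It lay 0.206 from mmu-miR-192-5p. A nearest row is the smallest of 221 distances, whereas the distance to a given member is a single value. A nearer row outside the clusters is therefore favoured in advance. This order does not show that arms or cluster partners differ in course. mmu-miR-215-5p lay 0.840 to 0.952 from these 4 members and had no close row, the nearest being mmu-miR-146a-5p at 0.610, mmu-miR-10a-3p at 0.617 and mmu-miR-10a-5p at 0.640, beside a median of 0.831.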

How the data were processed

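The authors extracted RNA from mouse liver with TRIzol, prepared small RNA libraries and mapped the reads with Bowtie to mm10 and miRBase. They deposited whole-number counts per mature miRNA, not normalized, and TPM, which equals the count over the column total times 1000000 without a length term. Groups were taken from the sample labels. Each pair of groups (6 samples) was compared on the deposited counts with edgeR 4.0.16 (R 4.3.3), using filterByExpr (minimum count 10), TMM factors, the quasi-likelihood F test and Benjamini-Hochberg adjustment over all rows tested (FDR). The script was tested on simulated counts. DESeq2 1.42.0, limma 3.58.1 on log2(TPM + 1) or log2(TPM + 0.1), other scalings and filters, and leaving out each replicate were alternatives. Ratios used counts + 0.5. Sequences and positions came from RefSeq (GRCm38.p6), and genes from GENCODE M21. Members and lists were chosen with earlier results of these data known. The text names all members, the 3 nearest rows of each member with at least 10 CPM, mmu-miR-122-5p and the leading miRNA of a list.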

Additional observations from a re-analysis of the deposited data

How the results depend on the processing

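The loss of mmu-miR-192-5p, mmu-miR-192-3p, mmu-miR-194-5p and mmu-miR-194-2-3p in TAA vs control and their gain in recovery vs TAA kept their direction under every alternative. Members called in TAA vs control fell from 4 to 1 with library totals and with limma on log2(TPM + 1) or log2(TPM + 0.1), that 1 being mmu-miR-215-5p, called higher, and were 4 with any replicate left out. In recovery vs TAA they fell from 5 to 0 under the same 3 alternatives and to 3 with a mean of at least 10 CPM. They rose to 7 with no filter on low counts, where mmu-miR-215-3p and mmu-miR-194-1-3p were called too. With a replicate left out they were 4 to 6, the 6 with mmu-miR-215-3p among them. In recovery vs control they rose from 0 to 1 with library totals, DESeq2, limma (both forms), no filter, removal of the miR-122 rows and the replicate block, and were 0 to 1 with a replicate left out, the 1 being mmu-miR-215-5p in each case (log2 fold change 1.73 without control replicate 2 and 1.46 without recovery replicate 1). The change of mmu-miR-215-5p in TAA vs control turned from -0.01 to 1.12 (library totals), 1.15 and 1.21 (limma), 0.21 (at least 10 CPM), 0.10 (all 9 samples in 1 fit) and 0.10 (replicate block), and ranged from -0.29 to 0.56 with a replicate left out. The causes were not tested.

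Replicate numbers are shared between groups, but the mice are different animals and the numbers did not pair them. Deviations of same-numbered samples correlated at -0.357 to 0.368. Each sample was set against the 3 samples of each other group. In 5 of these 18 pairs of a sample and a group, the sample correlated best with its own number. With the replicate block 4 members were called in recovery vs TAA, and the call lost was that of mmu-miR-215-5p (FDR 0.0703).

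With a replicate left out, log2 ratios that changed sign ranged from -0.31 to 0.0586 (recovery vs TAA) and -0.18 to 0.18 (recovery vs control) for mmu-miR-192-5p to mmu-miR-192-3p, -0.0402 to 0.13 for mmu-miR-194-5p to mmu-miR-194-2-3p (recovery vs control), -0.22 to 0.34 for mmu-miR-192-5p to mmu-miR-215-5p (recovery vs TAA), -0.0282 to 0.20 for mmu-miR-192-5p to mmu-miR-194-5p (recovery vs TAA) and -0.20 to 0.14 for mmu-miR-192-5p to mmu-miR-122-5p (recovery vs control). For mmu-miR-192-3p to mmu-miR-194-2-3p they ranged from -0.15 to 0.31 (TAA vs control), -0.37 to 0.0885 (recovery vs TAA) and -0.26 to 0.17 (recovery vs control). All of these had overlapping groups. Ratios to mmu-miR-194-1-3p, with its few counts, ranged from -0.51 to 0.82 (TAA vs control) and -2.07 to 0.11 (recovery vs control) for mmu-miR-194-5p, from -0.91 to 0.45, -2.02 to 0.24 and -2.10 to 0.15 (TAA vs control, recovery vs TAA, recovery vs control) for mmu-miR-194-2-3p, and from -0.22 to 1.39 (recovery vs control) for mmu-miR-215-5p. With counts + 0.1 the ratio of mmu-miR-194-2-3p to mmu-miR-194-1-3p was 0.61 (TAA vs control) and that of mmu-miR-215-5p to mmu-miR-194-1-3p -0.30 (recovery vs control). The ratio of mmu-miR-192-5p to mmu-miR-215-5p stayed lower than in control with any replicate left out, at -2.10 to -1.40 in TAA and -2.0 to -1.31 in recovery.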
